A study of Mus musculus with 6 samples.

Results

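The genes described here are 10 regulators of the ATF4 and CHOP stress response, chosen as the symbols *Atf4*, *Atf3*, *Atf5*, *Ddit3*, *Trib3*, *Chac1*, *Sesn2*, *Ddit4*, *Nupr1* and *Cebpb* out of the 30281 gene symbols in the deposited tables. All 10 were found, and all 10 passed the filter on low counts. RNA-Seq was performed on 6 mouse libraries, each the only library of its condition. MEFs (mouse embryonic fibroblasts) were *Tsc2*+/+ p53-/- in one library and *Tsc2*-/- p53-/- in the other, so both lack p53, and both were untreated. The methods describe routine culture of the MEFs in DMEM with serum, whereas the labels attach the serum-free protocol to every sample, and which medium the MEFs had before RNA was taken is not settled by these sources, so medium and cell type cannot be told apart where MEF and kidney levels stand side by side. The other 4 libraries came from *Tsc2*-null kidney epithelial cells of the lines MKOC and TJ, each untreated or given rapamycin at 100 nM during 18 hr without serum (DMEM with BSA). The TJ line was derived from a secondary tumor in C57BL6 mice, the labels give no p53 genotype for either kidney line, and there is no kidney line with intact *Tsc2* and no rapamycin-treated MEF library. For rapamycin, the MKOC and TJ lines are the only replicates, each as far as the labels say a single culture. The p-values rest partly on the spread between these libraries. With so few libraries, they rest mostly on a spread that the test shares across genes. They are thus no measure of agreement between replicate cultures.

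ATF4 is a transcription factor whose mRNA is translated best when the initiation factor eIF2 is phosphorylated on its alpha subunit, which happens under amino acid shortage, stress of the endoplasmic reticulum (ER), heme shortage or viral RNA. mTORC1, the kinase complex that rapamycin inhibits and that TSC2 restrains, also raises ATF4 output by acting on its mRNA and its translation. ATF4 turns on genes of amino acid synthesis and uptake, tRNA charging and glutathione turnover, together with a second tier of regulators such as CHOP, the product of *Ddit3*, and TRIB3, which damps the response.

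Libraries held between 22887020 and 37505004 estimated counts (Kallisto's estimate of the read pairs from each transcript), of which the 10 genes took between 0.0529% and 0.170%. *Tsc2*, looked at as a possible check of the labels, lies at chr17:24595816-24632630 on the minus strand (GRCm38). It had 22.6 TPM (Kallisto's level of a transcript relative to its library and scaled by length) in *Tsc2*+/+ MEFs and 10.5 in *Tsc2*-/- MEFs. Its level was 49.1 and 19.5 in untreated and rapamycin-treated MKOC cells, and 44.0 and 19.1 in TJ cells. *Tsc2* RNA was thus present in all 5 libraries labelled *Tsc2*-/- or *Tsc2*-null. Which exons the reads covered is not shown, so the labels could not be checked by this RNA. The gene also shares 693 bases with *Pkd1* on the other strand, and whether Kallisto was told the strand is not given. The epithelial keratin *Krt8* had 539 to 990.2 TPM in the kidney lines, where 7 of 10 kidney epithelial markers reached 1 TPM and *Epcam* and *Lhx1* were at or near 0. The 8 fibroblast markers summed to 1814 and 2488 TPM in the MEFs and to between 8.05 and 52.6 in the kidney lines. *Tsc2*-/- MEFs also held 77.6 TPM of kidney epithelial markers, mainly *Krt19* and *Krt18*, against 0.769 in *Tsc2*+/+ MEFs, and the part of this in the MEF differences was not tested.

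*Atf4* had the highest level of the 10 genes in every library, although *Ddit3* matched it within counting error in *Tsc2*+/+ MEFs, and *Cebpb* or *Sesn2* had the lowest. Over the 6 libraries, levels spanned 2.59-fold for *Atf4* and 19.8-fold for *Ddit3*, and *Cebpb* had the smallest span. The lowest library was a rapamycin-treated one for 9 of the 10 genes. Bars in the plot of levels are 95% counting intervals, which cover counting error only. MEF and kidney levels were set side by side in TPM only, with no other scaling.

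**Figure D1:**
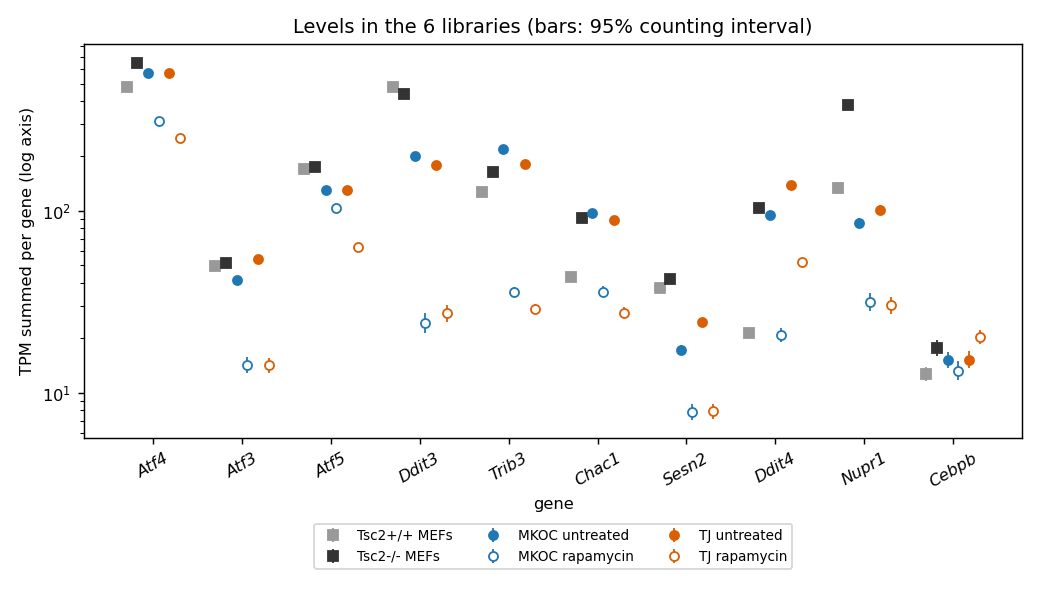
Level of each of the 10 genes in TPM (log axis) in the 6 libraries, with squares for MEFs, filled circles for untreated and open circles for rapamycin-treated kidney lines, and 95% counting intervals as bars. Both open circles lie below both filled circles for every gene but *Cebpb*, whose 6 levels lie between 12.7 and 20.2 TPM.

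The stretch before the start site is where ATF4 and CHOP, as partners of C/EBP proteins, bind composite sites. Sequences below are the 250 bases before the RefSeq start of 5 of the genes (GRCm38.p6), written 5′ to 3′ on the gene's strand. *Atf3*, *Chac1* and *Nupr1* are shown because they hold matches to such a site, *Ddit3* because its RNA differed most with rapamycin, and *Cebpb* because its RNA did not pass the test. Capitals mark matches on either strand to TGATGNAA, the core of the C/EBP-ATF response element, or to TGACGNAA, a variant that shares part of the cAMP response element.
Atf3, chr1:191183334-191183583, minus strand: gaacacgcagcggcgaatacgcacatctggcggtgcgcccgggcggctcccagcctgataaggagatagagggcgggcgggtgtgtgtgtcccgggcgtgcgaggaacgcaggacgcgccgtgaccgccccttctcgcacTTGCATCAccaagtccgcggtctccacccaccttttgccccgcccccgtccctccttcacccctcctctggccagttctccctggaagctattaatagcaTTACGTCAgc
Chac1, chr2:119350992-119351241, plus strand: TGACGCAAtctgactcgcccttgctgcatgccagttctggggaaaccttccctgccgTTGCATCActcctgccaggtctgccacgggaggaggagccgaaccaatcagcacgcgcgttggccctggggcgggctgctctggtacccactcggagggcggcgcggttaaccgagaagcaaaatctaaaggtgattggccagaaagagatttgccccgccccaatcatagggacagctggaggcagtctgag
Nupr1, chr7:126625471-126625720, minus strand: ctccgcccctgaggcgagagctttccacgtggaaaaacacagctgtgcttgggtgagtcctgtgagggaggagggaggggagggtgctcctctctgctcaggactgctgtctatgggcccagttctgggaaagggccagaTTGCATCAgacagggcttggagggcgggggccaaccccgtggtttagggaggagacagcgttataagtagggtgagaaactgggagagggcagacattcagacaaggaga
Ddit3, chr10:127290543-127290792, plus strand: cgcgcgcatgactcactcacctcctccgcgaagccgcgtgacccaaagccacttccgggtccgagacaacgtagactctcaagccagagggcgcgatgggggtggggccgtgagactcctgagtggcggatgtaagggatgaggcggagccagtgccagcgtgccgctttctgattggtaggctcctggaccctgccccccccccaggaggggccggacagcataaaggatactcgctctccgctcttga
Cebpb, chr2:167688665-167688914, plus strand: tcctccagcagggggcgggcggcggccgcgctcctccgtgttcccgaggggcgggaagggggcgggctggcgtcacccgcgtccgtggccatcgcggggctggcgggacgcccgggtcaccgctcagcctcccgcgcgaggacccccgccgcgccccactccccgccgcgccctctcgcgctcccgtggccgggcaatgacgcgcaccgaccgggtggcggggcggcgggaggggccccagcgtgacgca

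In *Atf3*, the match written TTGCATCA (the other strand of TGATGNAA) starts 110 bases before the start site, and TTACGTCA starts 10 bases before it. *Chac1* has TTGCATCA from 193 bases and TGACGCAA from 250 bases before its start, and *Nupr1* has TTGCATCA from 110 bases before its start. In windows of 300 bases (250 before the start and 50 from it), TGATGNAA was found in 3.97% of 32851 RefSeq windows and in 4 of the 10 genes, *Trib3* being the fourth with a match just after its start. TGACGNAA was found in 1.59% of windows and in *Atf3* and *Chac1*, and the full cAMP element TGACGTCA in 1.79% of windows and in none of the genes. The motifs were chosen after the values were known, a match is a stretch of letters and not a shown site, and *Atf5* has 2 windows.

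With rapamycin, RNA of 9 of the 10 genes fell in the kidney lines and that of *Cebpb* did not pass the test. Of the 12952 genes tested, 17.4% fell and 17.5% rose (edgeR's quasi-likelihood test, with a term for the line and Benjamini-Hochberg adjustment). In bulk RNA, fewer cells with a transcript and less of it per cell cannot be told apart. The median log2 fold change was −1.57 over the 10 genes and 0.02 over all genes. None of the 10 rose by edgeR, also at an unadjusted p under 0.05 and by DESeq2 and limma. Taking each line alone, with no test, 7 of the 10 were at least 2-fold lower in MKOC cells (2.42% of all genes were) and 9 in TJ cells (2.24%). None was 2-fold higher, as 3.8% and 3.42% of all genes were. Leaving out a library leaves 3 libraries and no term for the line: 8 of the genes still passed as lower without treated MKOC cells (*Ddit4* was lost), where 291 of all genes did, and 8 without treated TJ cells (*Atf5* was lost), where 246 did. Without untreated MKOC cells 5 passed (*Atf4*, *Atf5*, *Chac1* and *Ddit4* were lost), among 60 of all genes. Without untreated TJ cells 0 of the 10 and 0 of all genes passed by edgeR, and 8 of the 10 had an unadjusted p under 0.05. The summed level of the 10 kidney epithelial markers was also higher with rapamycin, 2109 against 1461 TPM in MKOC cells and 2502 against 1677 in TJ cells, with *Krt8*, *Krt18* and *Cdh16* past the test. Among those that did not pass, log2 fold changes were 0.15 for *Cdh1*, −0.0082 for *Pax2* and −0.11 for *Pax8*, and *Pax8* (141 to 121 TPM) and *Pax2* (15.0 to 12.2) were lower in treated MKOC cells. Of the macrophage markers, *Csf1r* (11.3 to 17.7 TPM in MKOC, 25.0 to 30.3 in TJ cells) and *Cd14* rose, while *Ptprc* and *Adgre1* were at or near 0 in all 4 libraries. Of the 7 fibroblast markers tested, *Dcn* (25.5 to 50.3 TPM in MKOC, 6.73 to 10.5 in TJ cells) and *Col3a1* rose, and 5 did not pass. *Col3a1* was near the floor, from 0.473 to 0.973 TPM in MKOC and from 0.139 to 1.07 in TJ cells (adjusted p = 0.0425, edgeR). The part of these markers in the differences was not tested.

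**Figure D2:**
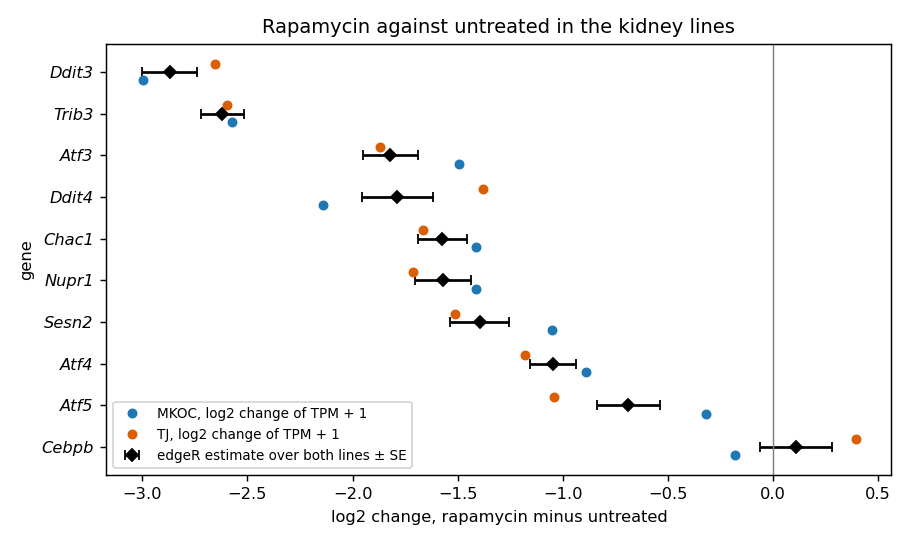
Log2 change with rapamycin (x axis, treated minus untreated) of each gene, with the edgeR estimate over both lines ± SE as diamonds and the change of TPM + 1 within MKOC and TJ cells as circles. *Ddit3* at −2.87 and *Trib3* at −2.62 lie farthest left, and the circles of *Cebpb* lie on opposite sides of 0.

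*Atf4*, the factor at the head of the response, lies at chr15:80255184-80257541 on the plus strand (GRCm38) and is listed as 1 transcript. Its level was 479 TPM in *Tsc2*+/+ MEFs, 648 in *Tsc2*-/- MEFs, 575 in untreated and 309 in rapamycin-treated MKOC cells, and 568 in untreated and 250.1 in rapamycin-treated TJ cells. Untreated levels of the kidney lines differed by less than their counting intervals, and both rapamycin libraries were lower than the other 4. *Atf4* fell by 1.05 ± 0.11 (SE) on the log2 scale, a 2.06-fold lower RNA level (adjusted p = 1.10e-04, edgeR), which puts it among the lowest 2.67% of changes. RNA of *Atf4* says nothing of its translation, which was not measured.

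*Atf3*, a stress-induced repressor and activator of the same family, lies at chr1:191170296-191218039 on the minus strand. It had 49.3 TPM in *Tsc2*+/+ MEFs, 51.3 in *Tsc2*-/- MEFs, 41.7 and 14.2 in untreated and rapamycin-treated MKOC cells, and 54.1 and 14.1 in TJ cells. The rapamycin libraries were indistinguishable from each other by counting error and lay below the other 4. The log2 fold change was −1.82 ± 0.13 (SE, adjusted p = 1.54e-05, edgeR), or 3.53-fold lower. Its promoter, printed above, is the only one of the 10 with a match to each of TGATGNAA and TGACGNAA within 110 bases of the start.

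*Atf5*, a factor whose translation is also raised by eIF2 phosphorylation and which serves the mitochondrial stress response, lies at chr7:44812256-44816658 on the minus strand. Its level was 169.8 and 174 TPM in *Tsc2*+/+ and *Tsc2*-/- MEFs, 129 and 103 in untreated and rapamycin-treated MKOC cells, and 130.4 and 62.9 in TJ cells. *Atf5* had the smallest change of the 9 genes that fell, −0.69 ± 0.15 (log2, SE, adjusted p = 0.0061, edgeR). It was −0.33 without treated TJ cells and −1.06 without treated MKOC cells, and it passed the test only in the latter of the 4 fits that left out a library (adjusted p 0.0256 to 0.330, edgeR). Within lines the change was −0.32 in MKOC and −1.04 in TJ cells (log2 of TPM + 1), and whether the lines differ was not tested. Its gene overlaps *Il4i1* and *Nup62* on the other strand by 272 and 571 bases, and whether Kallisto was told the strand is not given in the sources used here.

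*Ddit3*, which encodes the proapoptotic factor CHOP, lies at chr10:127290774-127296288 on the plus strand. Its level was 478 TPM in *Tsc2*+/+ MEFs, 438 in *Tsc2*-/- MEFs, 199.7 in untreated and 24.1 in rapamycin-treated MKOC cells, and 178 in untreated and 27.4 in rapamycin-treated TJ cells. The MEFs were highest, the untreated kidney lines came between, and the rapamycin libraries, which did not differ beyond counting error, were lowest. Its log2 fold change of −2.87 ± 0.13 (SE, adjusted p = 1.79e-06, edgeR) was the largest fall of the 10 genes and the 21st lowest of 12952 genes. In MKOC cells the treated level was 8.28-fold lower (95% counting interval 7.28 to 9.46) and in TJ cells 6.49-fold lower (5.79 to 7.30). Neither motif is in its printed 250 bases. *Ddit3* shares 68 bases with *Mars* on the other strand, and a second gene model of the same name overlaps it.

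*Cebpb* encodes C/EBPβ, a partner with which ATF4 and CHOP form dimers, and lies at chr2:167688915-167690418 on the plus strand. It had 12.7 and 17.6 TPM in *Tsc2*+/+ and *Tsc2*-/- MEFs, 15.1 and 13.2 in untreated and rapamycin-treated MKOC cells, and 15.2 and 20.2 in TJ cells. The treated libraries lay on both sides of the untreated ones, and the edgeR log2 fold change was 0.11 ± 0.17 (SE, adjusted p = 0.656). In MKOC cells the treated level was 87.4% of the untreated one (counting interval 74.6% to 102.2%) and in TJ cells 133.4% (116.2% to 153.3%). *Tmem189* on the other strand covers 908 bases of the gene, so its values are uncertain if strand was not used.

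*Trib3*, a pseudokinase that binds ATF4 and CHOP and restrains their activity, lies at chr2:152337422-152344032 on the minus strand. Levels were 127 TPM in *Tsc2*+/+ MEFs, 162 in *Tsc2*-/- MEFs, 218 and 35.9 in untreated and rapamycin-treated MKOC cells, and 179.8 and 28.9 in TJ cells. Unlike *Ddit3*, *Trib3* was higher in both untreated kidney libraries than in both MEF libraries, and the rapamycin libraries were again lowest. *Trib3* fell by 2.62 ± 0.10 (log2, SE, adjusted p = 8.14e-07, edgeR), the 32nd lowest change of all genes and a 6.14-fold lower level. Within lines the change was −2.57 in MKOC and −2.59 in TJ cells (log2 of TPM + 1).

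*Chac1*, an enzyme that breaks down glutathione and a close readout of ATF4, lies at chr2:119351229-119354381 on the plus strand. It had 43.4 TPM in *Tsc2*+/+ MEFs, 91.2 in *Tsc2*-/- MEFs, 97.0 and 35.8 in untreated and rapamycin-treated MKOC cells, and 89.3 and 27.5 in TJ cells. In TPM, *Tsc2*-/- MEFs and both untreated kidney lines lay close together, and the *Tsc2*+/+ MEFs lay nearer to the rapamycin libraries. The log2 change between the MEFs was 1.05 on the scale of TPM + 1 and 0.56 under another scaling given below. The place of the *Tsc2*+/+ MEFs thus depends on the scaling. *Chac1* fell by 1.57 ± 0.12 (log2, SE, adjusted p = 1.68e-05, edgeR).

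*Nupr1*, a small stress-induced chromatin protein, lies at chr7:126623249-126630861 on the minus strand. Its level was 132.5 TPM in *Tsc2*+/+ MEFs, 383 in *Tsc2*-/- MEFs, 85.4 and 31.4 in untreated and rapamycin-treated MKOC cells, and 101 and 30.2 in TJ cells. *Tsc2*-/- MEFs stood above the other 5 libraries, and the rapamycin libraries did not differ beyond counting error. *Nupr1* fell by 1.57 ± 0.13 (log2, SE, adjusted p = 3.09e-05, edgeR) with rapamycin.

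*Sesn2* and *Ddit4* encode Sestrin 2 and REDD1, stress-induced proteins that hold back mTORC1, the first through the amino acid branch and the second through TSC2, and both are also p53 targets. *Sesn2*, at chr4:132492032-132510501 on the minus strand, had 37.4 and 42.1 TPM in *Tsc2*+/+ and *Tsc2*-/- MEFs, 17.2 and 7.80 in untreated and rapamycin-treated MKOC cells, and 24.3 and 7.88 in TJ cells. The p53-/- MEFs had the highest *Sesn2* levels of the 6 libraries. *Sesn2* fell by 1.40 ± 0.14 (log2, SE, adjusted p = 8.74e-05, edgeR), and it shares 6089 bases of its locus with *Gm12981* on the same strand.

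*Ddit4* lies at chr10:59949669-59951834 on the minus strand. It had 21.2 TPM in *Tsc2*+/+ MEFs, 104 in *Tsc2*-/- MEFs, 95.03 and 20.8 in untreated and rapamycin-treated MKOC cells, and 138 and 52.5 in TJ cells. In TPM, the level of *Tsc2*+/+ MEFs did not differ beyond counting error from that of rapamycin-treated MKOC cells, and treated TJ cells stood above both. Transcripts shorter than 300 bases took 20.9% of TPM in *Tsc2*+/+ MEFs and 7.31% in treated MKOC cells. The likeness of these levels thus depends on the scaling. *Ddit4* fell by 1.79 ± 0.17 (log2, SE, adjusted p = 5.92e-05, edgeR). The log2 fold change was −1.17 without treated MKOC cells and −2.48 without treated TJ cells, and it passed the test only in the latter of the 4 fits that left out a library (adjusted p 0.0162 to 0.236, edgeR). Its change of TPM + 1 was −2.14 in MKOC and −1.38 in TJ cells on the log2 scale.

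Between the lines, *Ddit4* was the only one of the 10 genes past the test in the fit described above. Over both treatments it was 0.90 ± 0.16 (log2, SE) higher in TJ than in MKOC cells (adjusted p = 0.00934, edgeR, line term of the same fit), where 5.47% of all genes were higher and 3.32% lower in TJ cells. The order of lines was the same in both treatments, 138 against 95.03 TPM untreated and 52.5 against 20.8 with rapamycin. None of the 10 passed as lower in TJ cells in that fit, by DESeq2 or by limma, while 3 had an unadjusted p under 0.05 in edgeR, and *Atf5* passed as lower without the filter on low counts (log2 fold change −0.37, adjusted p = 0.0377, edgeR). The call for *Ddit4* was lost without the treatment term and in all 4 fits that left out a library, which set unequal treatments against each other. Markers of other cell types also differed between the lines in this fit: *Csf1r* (0.94), *Cd14* (0.76), *Pdgfrb* (2.63, under 1 TPM in all 4 libraries) and the kidney marker *Cdh16* (0.47) were higher in TJ cells, and *Dcn* (−2.12) and *Cdh5* (−1.57) lower (log2). Summed macrophage markers were 18.3 and 27.7 TPM in untreated and treated MKOC cells and 35.6 and 50.6 in TJ cells, with *Ptprc* and *Adgre1* at or near 0, and summed fibroblast markers 27.1 and 52.6 against 8.05 and 13.9. Summed endothelial markers were 3.71 and 3.24 against 1.49 and 1.28 TPM. The part of these markers in the line difference was not tested.

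In the MEFs, 3 of the 10 genes were at least 2-fold higher in *Tsc2*-/- cells, namely *Ddit4*, *Nupr1* and *Chac1*, where 25.2% of all 12771 genes were, and none was 2-fold lower, where 5.18% were. With 1 library per genotype there is no test, and the intervals below cover counting only. *Ddit4* was 4.90-fold higher (95% counting interval 4.55 to 5.28), *Nupr1* 2.89-fold (2.75 to 3.04) and *Chac1* 2.10-fold (1.97 to 2.23). The median log2 change of all genes was 0.45 between these libraries on the scale of TPM + 1, and of the 10 genes only these 3 lay above it. The median depends on the scaling, at 0.08 with TPM scaled to a median ratio of 1 and −0.0024 as CPM (read counts scaled to library size) with TMM factors. Against that median, *Ddit4* stood 1.79, *Nupr1* 1.07 and *Chac1* 0.60 higher on the log2 scale, whereas *Ddit3* stood 0.58, *Atf5* 0.42 and *Atf3* 0.40 lower. *Atf4* (0.44), *Cebpb* (0.45) and *Trib3* (0.35) lay within about 0.1 of the median shift. As CPM with TMM factors, the changes of *Atf4* (−0.06), *Trib3* (−0.15), *Sesn2* (−0.33), *Atf3* (−0.42), *Atf5* (−0.44) and *Cebpb* (−0.02) turned negative, and that of *Chac1* dropped to 0.56, under 2-fold. Transcripts shorter than 300 bases took 20.9% of TPM in *Tsc2*+/+ and 7.12% in *Tsc2*-/- MEFs, and without these and mitochondrial transcripts the median shift was 0.25.

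**Figure D3:**
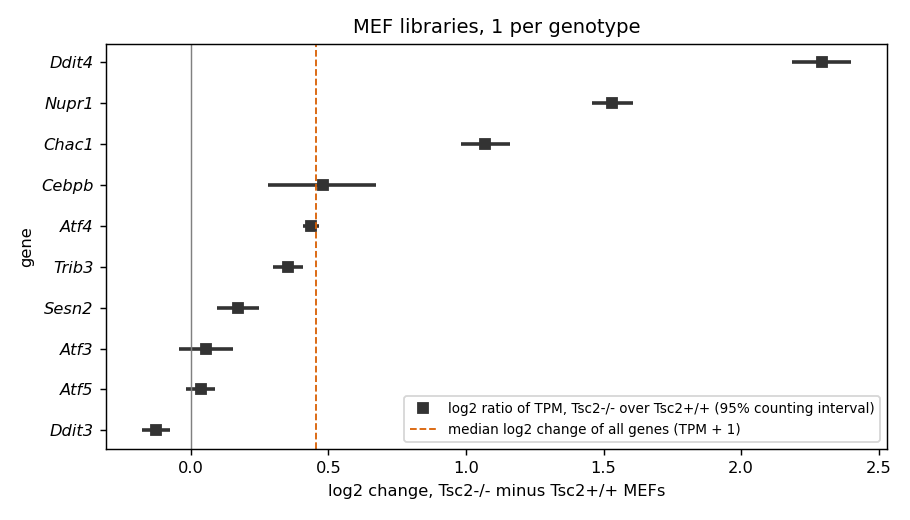
Log2 ratio of TPM in *Tsc2*-/- over *Tsc2*+/+ MEFs (x axis) for each gene, 1 library per genotype, with 95% counting intervals as bars and the median log2 change of all genes (TPM + 1) as a dashed line. The whole intervals of *Ddit4*, *Nupr1* and *Chac1* lie right of the dashed line at 0.45, those of *Cebpb* and *Atf4* include it, and *Ddit3* is the only gene left of 0.

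Upstream of ATF4, the genes of the kinases that phosphorylate eIF2, their regulators *Gcn1l1* and *Impact*, the eIF2 alpha subunit and the phosphatase that reverses the mark form a list of 10. Of these 10 genes, 4 fell and 1 rose with rapamycin, where 17.4% and 17.5% of all genes did, and their median log2 fold change was −0.15. *Ppp1r15a*, the stress-induced subunit of that phosphatase and itself an ATF4 target, fell by 0.90 ± 0.11 (log2, SE, adjusted p = 3.12e-04, edgeR), from 99.0 to 59.8 TPM in MKOC and from 119 to 56.7 in TJ cells. *Eif2s1*, which encodes the alpha subunit of eIF2, fell by 0.73. *Eif2ak3*, the ER stress kinase PERK, rose by 0.32 ± 0.11 (log2, SE, adjusted p = 0.0467, edgeR), and the kinase genes *Eif2ak1*, *Eif2ak2* and *Eif2ak4* had log2 fold changes of 0.10, 0.29 and 0.06 that did not pass the test. In the MEFs, none of the 10 genes was 2-fold apart, where 25.2% of all genes were higher and 5.18% lower.

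Enzymes of amino acid and one-carbon synthesis fell throughout. All 14 tested of 15 passed as lower, with a median log2 fold change of −1.43, beside 17.4% lower and a median of 0.02 among all genes. *Cth*, which makes cysteine from cystathionine, went from 56.0 to 5.77 TPM in MKOC and from 45.1 to 4.46 in TJ cells (log2 fold change −3.34 ± 0.13 SE, adjusted p = 8.14e-07, edgeR). Its fitted change was farther from 0 than those of *Ddit3* and *Trib3*, a difference that was not tested. *Aldh1l2*, a mitochondrial folate enzyme, and *Psph*, the last step of serine synthesis, had log2 fold changes of −2.58 and −2.52, and *Phgdh*, the first step of serine synthesis, one of −0.74. In *Tsc2*-/- MEFs 3 of 14 were at least 2-fold higher, near the 25.2% of all genes, with *Bcat1*, which starts breakdown of branched-chain amino acids, at 61.2 and 213 TPM in *Tsc2*+/+ and *Tsc2*-/- MEFs and *Psph* at 110.0 and 246. *Cth* (53.9 and 45.7 TPM) was lower in the *Tsc2*-/- MEFs.

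Of 9 amino acid transporters tested, 8 fell (17.4% of all genes did) and *Slc38a2* did not pass the test (log2 fold change 0.26). *Slc7a3*, a carrier of cationic amino acids, had a log2 fold change of −1.63, *Slc1a4*, a carrier of small neutral amino acids, −1.49, and *Slc7a11*, the cystine carrier, −1.35. *Slc3a2*, the shared heavy chain of several carriers, had −0.31. The largest MEF difference of the list was in *Slc7a3*, with 0.740 TPM in *Tsc2*+/+ and 123 in *Tsc2*-/- MEFs, and 3 of the 10 transporters were at least 2-fold higher there, a share near the 25.2% of all genes.

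Among the 20 cytosolic aminoacyl-tRNA synthetases, which charge tRNA with amino acids, 19 fell and 1 rose, where 17.4% and 17.5% of all genes did, with a median log2 fold change of −1.09. The largest falls were those of *Wars* (−1.58 ± 0.10), *Nars* (−1.40 ± 0.11) and *Gars* (−1.28 ± 0.10, log2, SE). The one that rose was *Qars*, for glutamine, from 94.1 to 143 TPM in MKOC and from 96.8 to 127 in TJ cells (log2 fold change 0.45 ± 0.10 SE, adjusted p = 0.00504, edgeR). In the MEFs only *Rars*, 1 of the 20 beside 25.2% of all genes, was 2-fold higher in *Tsc2*-/- cells (128 against 303 TPM).

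**Figure D4:**
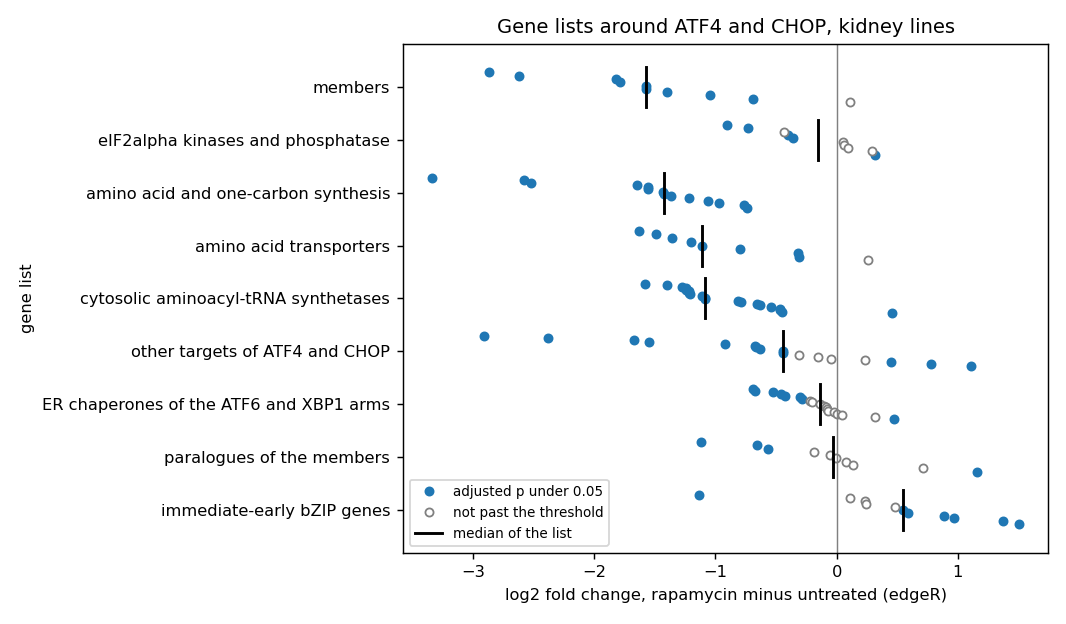
Log2 fold change with rapamycin in the kidney lines (x axis, edgeR) of each tested gene in 9 lists (y axis), filled where the adjusted p was under 0.05, with a vertical bar at each list's median. Lists of amino acid and one-carbon synthesis, transporters and tRNA synthetases lie mostly left of −0.3, while those of ER chaperones and paralogues center near 0 and immediate-early genes lie mostly to the right.

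Of 17 other targets of ATF4 and CHOP tested, 10 fell, beside 17.4% of all genes, and 3 rose, a share near the 17.5% of all genes, with a median log2 fold change of −0.44. The largest falls were those of *Fgf21*, a stress-induced hormone (−2.91 ± 0.38), *Ero1l*, an ER oxidase turned on by CHOP (−2.38 ± 0.13), and *Vldlr*, a lipoprotein receptor (−1.67 ± 0.11, log2, SE). *Bbc3*, which encodes the proapoptotic PUMA, rose by 1.11 ± 0.24, *Map1lc3b*, the autophagosome protein LC3B, by 0.78 ± 0.10, and *Gdf15*, a stress-induced cytokine, by 0.45 ± 0.12. In the MEFs, 5 of 18 were at least 2-fold higher and 1 lower in *Tsc2*-/- cells, shares near those of all genes (25.2% and 5.18%). *Vldlr* was listed at 0.00406 TPM in *Tsc2*+/+ and 79.0 in *Tsc2*-/- MEFs, *Pmaip1* (the proapoptotic NOXA) at 0.0645 and 28.1, and *Stc2*, a secreted glycoprotein, at 34.0 and 15.5.

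In the other arms of the ER stress response, driven by ATF6 and XBP1, more genes fell than rose. Of 19 genes of these arms (chaperones, folding factors, degradation genes and the factor genes *Atf6* and *Xbp1*), 7 fell, 1 rose and 11 did not pass, where 17.4% of all genes fell and 17.5% rose, with a median log2 fold change of −0.14. Log2 fold changes were −0.69 for *Hyou1*, an ER chaperone, −0.67 for *Atf6* itself and −0.52 for *Hspa5*, the chaperone BiP, which went from 296 to 193 TPM in MKOC and from 309.6 to 239.7 in TJ cells. *Syvn1*, a ubiquitin ligase of ER-associated degradation, rose by 0.47. *Xbp1* had a log2 fold change of 0.00 (0.0050, adjusted p = 0.978, edgeR). In the MEFs *Dnajb11* and *Sdf2l1*, both cochaperones, were at least 2-fold higher in *Tsc2*-/- cells, 2 of the 19 beside 25.2% of all genes. There *Hspa5* had 722 against 982 TPM.

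Relatives of the 10 genes did not all move with them. Of 10 paralogues tested (out of 16), 3 fell and 1 rose, beside 17.4% and 17.5% of all genes, so that neither count stands far from the background. The falls were −1.12 ± 0.16 (log2, SE) for *Chac2*, the constitutive relative of *Chac1*, −0.65 ± 0.12 for *Sesn3* and −0.56 ± 0.10 for *Atf1*, while *Trib1* rose by 1.15 ± 0.13 (adjusted p = 1.89e-04, edgeR), from 6.74 to 17.8 TPM in MKOC and from 13.3 to 25.6 in TJ cells. *Trib1* and *Trib3* thus passed the same test in opposite directions. *Sesn1*, a p53 target, had a log2 fold change of 0.14 that did not pass. Between MEFs, 5 of the 12 paralogues at 1 TPM or more were at least 2-fold higher and 1 lower in *Tsc2*-/- cells (25.2% and 5.18% of all genes were). *Sesn3* was at 1.08 TPM in *Tsc2*+/+ and 31.3 in *Tsc2*-/- cells, *Cebpd* at 0.708 and 7.76, and *Trib2* at 8.49 and 0.836.

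Immediate-early genes of the same bZIP class, with *Egr1*, mostly went the other way. Of 11, 6 rose and 1 fell, beside 17.5% and 17.4% of all genes, with a median log2 fold change of 0.54. *Egr1* rose by 1.51 ± 0.29, *Junb* by 1.37 ± 0.17 and *Fosl2* by 0.97 ± 0.15 (log2, SE), and *Fosl1* fell by 1.13 ± 0.12. *Egr1* had 10.04 and 50.9 TPM in untreated and treated MKOC cells and 22.8 and 37.3 in TJ cells. In *Tsc2*-/- MEFs, 5 of the 10 at 1 TPM or more were at least 2-fold higher (25.2% of all genes were), led by *Maff* (2.23 against 16.0 TPM) and *Egr1* (1.41 against 10.8).

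Genes whose levels followed those of 3 of the regulators most closely were sought over the 6 libraries and 10115 genes, by Pearson correlation of log2(TPM + 1), as a description. For *Atf4* they were *Timm8a1*, a mitochondrial import factor (r = 0.998), *Wdr12*, a ribosome assembly factor (0.995), and *Nars* (0.994). For *Ddit3* they were *Car6*, a carbonic anhydrase (0.997), *Adi1*, an enzyme of methionine salvage (0.997), and *Hspe1*, a mitochondrial chaperonin (0.996). *Car6* had 34.5 and 1.10 TPM in untreated and treated MKOC cells, 22.1 and 1.38 in TJ cells, and 92.0 and 106 in the MEFs. For *Trib3* they were *Ptges3*, a cochaperone of HSP90 (0.997), *Mars* (0.994) and *Lonp1*, a mitochondrial protease (0.994). The 6 points share libraries and include the same treatment pairs, and *Mars* overlaps *Ddit3*.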

How the data were processed

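Poly(A) libraries from a stranded kit were sequenced by the authors as paired reads of 100 bases, trimmed with Trimmomatic 0.32 and quantified with Kallisto, whose version is not given in the sources used here. The methods name a human transcriptome, whereas the deposited identifiers are mouse transcripts. The authors deposited estimated counts and TPM for 88198 transcripts in each of 6 libraries, with lengths and effective lengths. A deposited fold change, a ratio between the MEFs made by the authors, was used for its gene symbols only. Transcripts without a symbol (1006, between 0.372% and 0.468% of counts) were left out.

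Estimated counts and TPM were summed per symbol (30281). For rapamycin, sums were rounded and filtered (filterByExpr), scaled by TMM factors and entered into edgeR 4.0.16 (R 4.3.3), with the quasi-likelihood test with line and treatment as terms. Benjamini-Hochberg adjustment covered 12952 genes, at a threshold of 0.05. Each SE is the size of the log2 fold change divided by the square root of the test's F statistic. It therefore carries the spread shared across genes and is not the scatter of the lines alone. Libraries were paired by the line that their labels name, and the deviations of a line's libraries from the treatment means had a correlation of 0.56 across genes. For pairs of single libraries, log2 of the ratio of TPM + 1 was taken over genes with at least 1 TPM in either library, a 2-fold difference was the call, and exact binomial 95% intervals of the count ratio were given. Values of TPM + 1 understate changes of low genes. Depths of 22887020 to 37505004 counts gave each of the 10 genes at least 253 estimated counts in every library, the fewest being those of *Ddit3* in treated MKOC cells.

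Positions are from GENCODE (GRCm38), and promoters from RefSeq (GRCm38.p6), where all 10 genes matched. The 10 genes, the 8 lists around them (119 genes), 4 marker lists (29 genes) and the tests were chosen with earlier results of these data known. Named are the 10 genes, of each list up to 3 genes with the largest and 3 with the smallest log2 fold change past the rapamycin test, up to 2 per direction past 2-fold in the MEFs, any kinase, phosphatase or paralogue gene, and the 3 genes most alike to *Atf4*, *Ddit3* and *Trib3*. *Slc38a2*, *Cth* in the MEFs, *Hspa5* in the MEFs, *Xbp1*, *Canx*, *Pdia6*, *Dnajc3* and the markers past the line test were named after their values were seen. Alternatives were other normalizations and filters, DESeq2 1.42.0, limma 3.58.1 on log2(TPM + 1), fits without a term, each library left out, and other pseudocounts, scalings and folds. The steps of the rapamycin fit were run on counts simulated from the same model, with a dispersion common to all genes. Such counts cannot show how the test behaves when the lines respond differently.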

Additional observations from a re-analysis of the deposited data

Results flagged for a closer look

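Among the 10 genes and the 119 genes of the lists, those with at least 1 TPM in each of the 4 kidney libraries were searched for opposite directions in the MKOC and TJ lines, by the log2 change of TPM + 1 with rapamycin, and 12 had them. With 1 library per line and treatment, the difference between lines was not tested. For *Cebpb*, the change was −0.18 in MKOC and 0.39 in TJ cells, a difference (TJ minus MKOC) of 0.58. For *Trib2*, a relative of *Trib3*, it was −0.33 and 0.14 (difference 0.47), and for *Atf6b*, a relative of *Atf6*, −0.35 and 0.02 (difference 0.37). The eIF2 kinase genes *Eif2ak4* and *Eif2ak1* had differences of −0.34 and −0.24, with 0.23 in MKOC cells for both and −0.11 and −0.02 in TJ cells. The factor genes *Atf7* and *Atf2* had differences of 0.19 and −0.18. Of the genes of the ER, the chaperones and folding factors *Dnajc3* (−0.38), *Canx* (−0.25), *Sdf2l1* (0.29) and *Pdia6* (0.13) and the factor gene *Xbp1* (0.14) had smaller differences than *Cebpb*. None of the 12 passed the rapamycin test over both lines, which was nearly fixed by choosing genes with opposite directions.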

How the results depend on the processing

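Of the 10 genes, 9 fell with rapamycin under RLE and upper-quartile normalization, without a filter, and by DESeq2 and limma. With no replicate block, that is no cell line term, 7 did (*Atf5* and *Ddit4* were lost), and all genes gave 716 lower and 559 higher in place of 2259 and 2267 (DESeq2 1650 and 1394). Fits leaving out a library, which drop the other term and assume that a lone sample varies like the other arm, gave between 0 and 8 of the 10 lower, 0 to 291 of all genes lower and 0 to 322 higher, and *Cebpb* between −0.20 (without treated TJ cells) and 0.40.

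For TJ against MKOC cells, 1 of the 10 was lower without a filter (*Atf5*), 0 were higher without the treatment term and between 0 and 0 in fits leaving out a library, and *Ddit3* turned to 0.0071 under upper-quartile normalization and 0.0050 by limma. These left-out fits compare lines with unequal treatments by construction: *Atf4* −0.83 to 0.38, *Atf3* −1.04 to 1.30, *Atf5* −0.89 to 0.13, *Ddit3* −2.01 to 2.10, *Trib3* −2.14 to 1.53, *Chac1* −1.29 to 0.69, *Sesn2* −0.68 to 1.03, *Ddit4* −0.16 to 2.18 and *Nupr1* −0.92 to 1.05. Calls over all genes (430 lower, 709 higher) were 225 and 386 by DESeq2, 174 and 431 by limma, 741 and 1012 without a filter, 0 and 0 without the treatment term, and 0 to 20 and 0 to 95 in the left-out fits.

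In the MEFs, 2 or 3 of the 10 were 2-fold higher under each alternative and 0 lower, while all genes 2-fold apart ran from 1830 to 3653 higher and from 309 to 1236 lower (5460 and 1232 with 1.5-fold as the call). Within lines, 6 or 7 of the 10 (MKOC) and 8 or 9 (TJ) were at least 2-fold lower, among 153 to 442 and 138 to 400 of all genes, and 8 and 9 were at least 1.5-fold lower, among 1098 and 1020. *Cebpb* was in none of these counts. For a change within a line and between MEFs no replicate exists.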

Other observations

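The transcripts of *Atf5* and *Atf3* shared the counts differently between libraries, as Kallisto split them. Transcript ENSMUST00000107893 took 32.1% and 5.74% of *Atf5* counts in the *Tsc2*+/+ and *Tsc2*-/- MEFs, 27.9% and 38.5% in untreated and rapamycin-treated MKOC cells, and 44.0% and 19.0% in TJ cells. For *Atf3*, ENSMUST00000195117 took 37.1% and 4.85% in *Tsc2*+/+ and *Tsc2*-/- MEFs, 13.7% and 21.9% in MKOC cells, and 29.5% and 37.99% in TJ cells. Transcripts of a gene share most of their sequence, so the split is less certain than the sum per gene. *Trib3* showed no such spread, with ENSMUST00000040312 at 99.3% or more of its counts in each library.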
